A study of Mus musculus with 32 samples.

Results

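Chondrocytes that lost Ldha were compared with chondrocytes that lost Nampt by RNA sequencing, to find which genes responded differently to the 2 deletions. The comparison used the 16 libraries of the genotypes LDHA flox and NAMPT flox, of 32 in the series, with 8 libraries in each line and 2 in each group. All cells were unpassaged primary sternal chondrocytes from pups on the C57BL/6 strain. They were infected for 24 h with an adenovirus that carried either GFP or Cre, and then cultured for 24 h with or without IL-1β (IL-1b in the labels) at 10 ng/mL. The quantity tested was the Cre effect in LDHA flox cells (log2 of Cre over GFP) minus the Cre effect in NAMPT flox cells, and a positive difference means that Cre left the gene higher, relative to GFP, in the LDHA flox line. The GFP virus is the only control in each line, so what the Cre virus itself does is part of both Cre effects and part of neither control. No uninfected cells and no Cre-infected cells without a floxed gene were among these libraries. The labels do not say that the 2 libraries of a group came from separate cultures or animals, so the p-values measure the spread between these libraries, which may be technical.

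Lactate dehydrogenase A, the product of Ldha, reduces pyruvate to lactate and turns NADH back into NAD+, which lets glycolysis go on without mitochondrial respiration. Nicotinamide phosphoribosyltransferase, the product of Nampt, carries out the rate-limiting step by which nicotinamide is salvaged into NAD+. Both enzymes therefore act on the NAD pool, one on its redox state and the other on its size. In cartilage, IL-1β turns down the genes of the collagen and aggrecan matrix and turns up proteases, cytokines and nitric oxide and prostaglandin synthesis.

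The 16 libraries held 15830658 to 39959888 counts, and 16491 genes were tested. The labelled cell type was borne out by its markers, with Col2a1 at 11770.0 to 55630.0 and Acan at 812 to 7042 CPM (counts scaled to library size) in every library, and all 7 chondrocyte markers were tested. Levels are CPM after TMM scaling, given for the first and then the second library of a group, and Cre effects and differences are log2 values ± SE from an edgeR quasi-likelihood fit with the library set as a covariate. A gene was called at an adjusted p of 0.05 or less (Benjamini-Hochberg over all genes tested). Calls were also checked by leaving out each of the 16 libraries in turn. A difference without or with IL-1β is formed from the libraries of that treatment, and the others enter only through scaling, estimated spread and library set. Losses counted out of 16 therefore include fits in which every library that forms the difference was kept.

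Ldha (ENSMUSG00000063229, chr7:46841475-46855627, plus strand) and Nampt (ENSMUSG00000020572, chr12:32819545-32853349, plus strand) were each depleted in their own line. In LDHA flox cells Ldha was at 955 and 901 CPM with GFP and at 121 and 114 CPM with Cre. With IL-1β it was at 1589 and 1596 CPM with GFP and at 85.5 and 76.2 CPM with Cre. The Cre and GFP libraries of this line did not overlap in either condition. In NAMPT flox cells Ldha was at 990.2 and 942 CPM with GFP and 1064 and 1010.0 CPM with Cre, and with IL-1β at 1444 and 1366 CPM with GFP and 1160.0 and 1078 CPM with Cre. The Cre effect in this line with IL-1β, -0.33 ± 0.043 (SE, adjusted p = 5.14e-07), was a fall of Ldha in cells where it was not the target. Nampt was at 61.1 and 56.2 CPM with GFP and 6.85 and 7.02 CPM with Cre in its own line, and with IL-1β at 69.8 and 71.7 CPM with GFP and 6.04 and 4.87 CPM with Cre. In LDHA flox cells Nampt was at 62.1 and 62.1 CPM with GFP and 59.8 and 57.1 CPM with Cre, and with IL-1β at 86.9 and 77.9 CPM with GFP and 60.5 and 54.8 CPM with Cre, an IL-1β Cre effect of -0.52 ± 0.067 (SE, adjusted p = 7.25e-07). So with IL-1β each targeted gene also fell, by less, after Cre in the other line. The difference between the lines was -3.09 ± 0.063 (SE, adjusted p = 5.24e-21) for Ldha and 3.00 ± 0.11 (SE, adjusted p = 1.70e-15) for Nampt without IL-1β, and -3.97 ± 0.064 (SE, adjusted p = 2.28e-23) and 3.16 ± 0.11 (SE, adjusted p = 1.16e-15) with it. The 3 Ldha pseudogenes Ldha-ps2, Gm13549 and Gm11814 had differences in the direction of Ldha. They are near-identical copies whose reads the counting could not surely separate from those of Ldha. They are not described further, but the counts of called genes below include them. Ldhb, the other common LDH subunit, was at 48.2 and 46.5 CPM with Cre in LDHA flox cells and 53.3 and 56.2 CPM in NAMPT flox cells, and its difference missed the threshold without and with IL-1β (adjusted p = 0.731 and 0.997).

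**Figure D1:**
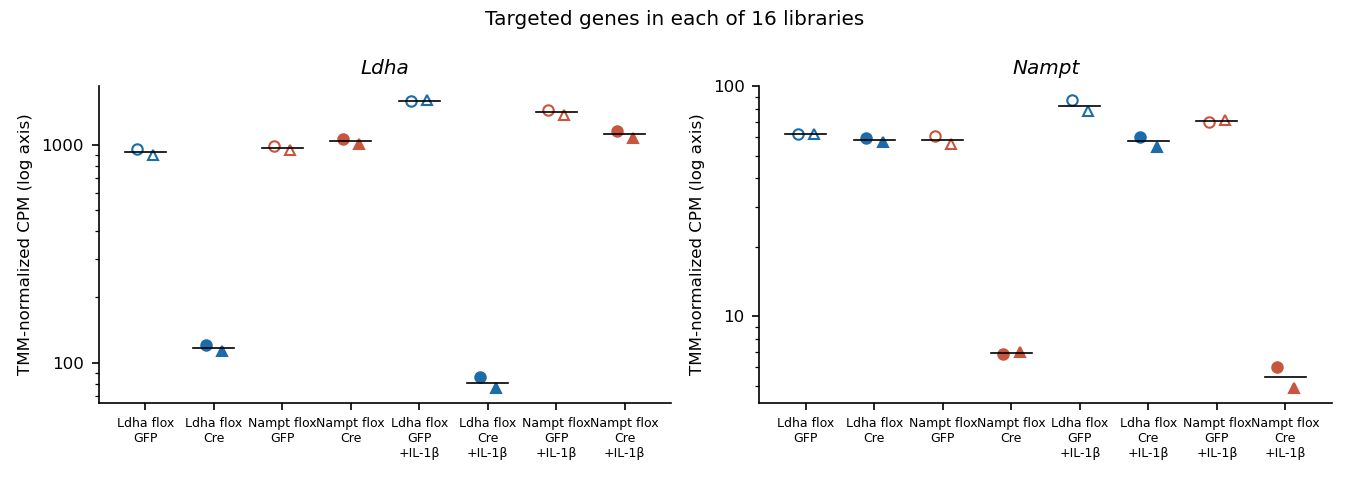
CPM after TMM scaling of Ldha and Nampt (y axes, log scale) in the 16 libraries by line, virus and IL-1β (x axes). Blue marks LDHA flox and red NAMPT flox, open symbols GFP and filled symbols Cre, circles library set 1 and triangles set 2, and bars the mean of the 2 libraries. Ldha was at 76.2 to 121 CPM in the 4 LDHA flox Cre libraries and above 900 CPM in the other 12, and Nampt was at 4.87 to 7.02 CPM in the 4 NAMPT flox Cre libraries and above 54 CPM in the other 12.

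Most genes that changed after loss of Ldha changed in the same direction after loss of Nampt. Without IL-1β, Cre changed 2459 genes in LDHA flox cells (14.9% of those tested, 7.25% higher and 7.66% lower) and 3776 in NAMPT flox cells (22.9%, 11.7% higher and 11.2% lower). Of these, 1840 were called in both lines, which is 74.83% of the LDHA flox list and 48.73% of the NAMPT flox list, and all but 1 had the same sign. With IL-1β, 7461 genes (45.2%, 23.0% higher and 22.3% lower) and 9129 genes (55.4%, 27.7% higher and 27.6% lower) were called, 6396 of them in both lines and all but 19 with the same sign. Over the 10849 genes above 5 CPM on average, the Cre effects of the 2 lines had a Pearson r of 0.839 without and 0.946 with IL-1β. This is a description across genes, which are not independent replicates, and the lines also shared the viruses and library sets. The NAMPT flox effects were the larger ones: the slope of their major axis on the LDHA flox effects was 1.32 without and 1.19 with IL-1β, and the NAMPT flox effect was larger in size for 74.0% and 73.1% of the genes called in either line.

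**Figure D2:**
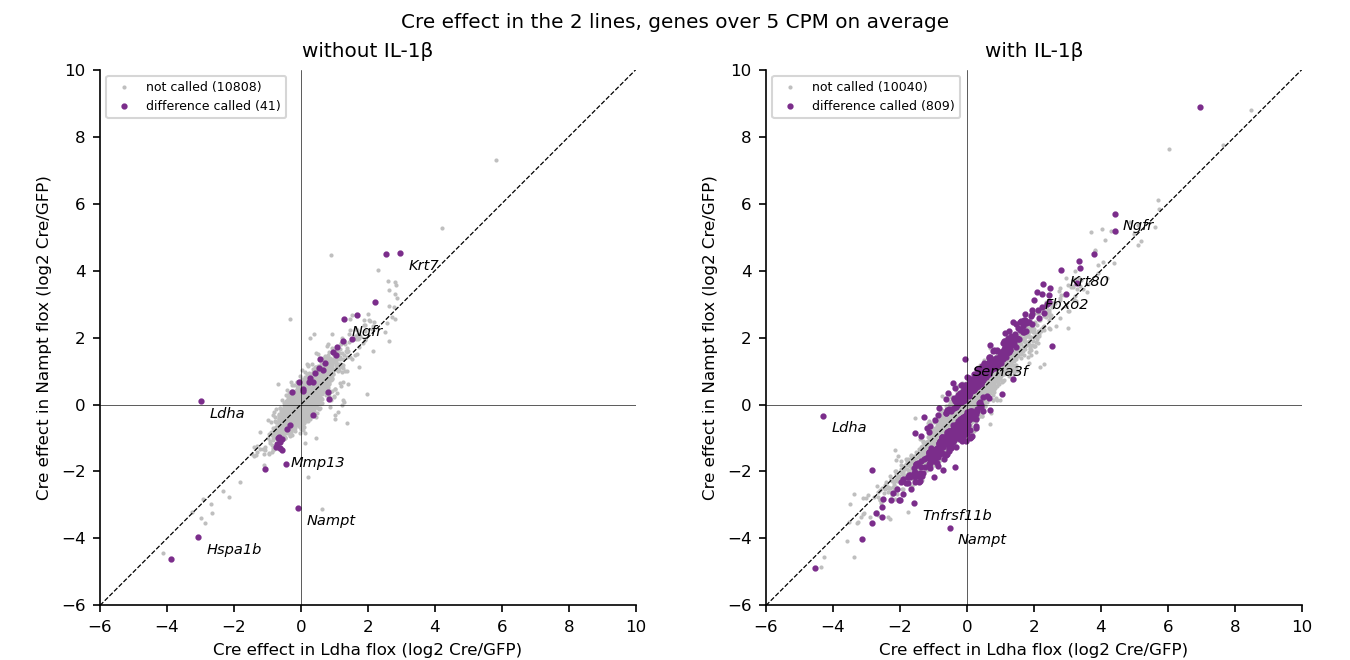
Cre effect (log2 of Cre over GFP) in LDHA flox cells (x axes) against that in NAMPT flox cells (y axes) for the 10849 genes above 5 CPM on average, without (left) and with (right) IL-1β, with the dashed line where both are equal. Purple points are genes whose difference between the lines was called, 41 of the genes plotted without and 809 with IL-1β, and most of them lie farther from 0 on the y axis than on the x axis.

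Without IL-1β, 45 genes (0.273% of those tested) differed between the deletions, 19 with a positive and 26 with a negative difference. For 33 of the 45 both Cre effects were called with the same sign, and the NAMPT flox effect was the larger one in 32 of these. In 6 of the others only the LDHA flox effect was called, in 5 only the NAMPT flox effect, and in 1 both were called with opposite signs. The 6 include Ldha itself and the 3 Ldha pseudogenes, and the 5 include Nampt. Without the 2 targets and these pseudogenes, 40 of the 45 remain. In 35 of the 45 the lines stood farther apart among Cre than among GFP libraries. The lines differed already with GFP in 14 of the 45, against 495 (3.0%) of all genes, 1.53% higher and 1.47% lower in LDHA flox cells. The GFP levels are part of the tested difference, so a larger share among called genes is built in and is no separate result.

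Among the genes named for a difference of at least 1, Krt8, Krt7, Ngfr and Nptx1 rose with Cre in both lines, with the larger effect in NAMPT flox cells. Krt8, a keratin of simple epithelia, was at 1.28 and 0.879 CPM with GFP and 6.50 and 6.29 with Cre in LDHA flox cells. In NAMPT flox cells it was at 0.416 and 0.541 CPM with GFP and 9.98 and 10.7 CPM with Cre. Its difference was -1.96 ± 0.33 (SE, adjusted p = 0.00384). Krt7, another simple keratin, went from 2.89 and 3.10 to 23.0 and 24.0 CPM in LDHA flox and from 1.38 and 2.27 to 38.8 and 38.9 CPM in NAMPT flox cells. Krt7 differed by -1.55 ± 0.23 (SE, adjusted p = 9.35e-04). For both keratins the GFP libraries of the NAMPT flox line were the lowest and its Cre libraries the highest, with no overlap between viruses in either line. Ngfr, which encodes the low-affinity neurotrophin receptor, went from 6.35 and 7.20 to 16.8 and 15.5 CPM and from 4.11 and 6.17 to 27.9 and 29.7 CPM. Ngfr differed by -1.28 ± 0.16 (SE, adjusted p = 1.34e-04). Nptx1, a secreted neuronal pentraxin, was at 14.1 and 13.8 CPM with Cre in LDHA flox and 25.1 and 24.5 CPM in NAMPT flox cells. Nptx1 differed by -1.01 ± 0.22 (SE, adjusted p = 0.0483). The Nptx1 call was the least firm, lost without 9 of the 16 libraries in turn, among them both LDHA flox Cre and all 4 NAMPT flox libraries without IL-1β (-0.86 to -1.15 over the lost fits), and under limma voom, RLE scaling and filterByExpr. Krt7 lost its call only without the first NAMPT flox GFP library (-1.09, adjusted p = 0.133), and Krt8 without that library (-1.68, 0.177), without the first LDHA flox GFP library (-1.64, 0.146) and under limma voom, while Ngfr kept its call without each library.

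Krt8 belongs to a list of 5 epithelial markers whose summed level rose with Cre in both lines. Without IL-1β the list was at 5.84 and 4.52 CPM with GFP and 31.95 and 27.1 with Cre in LDHA flox cells, and at 4.76 and 6.17 CPM with GFP and 55.5 and 57.6 CPM with Cre in NAMPT flox cells. With Cre and IL-1β it was at 165 and 149 CPM in LDHA flox and 211 and 209 CPM in NAMPT flox cells. The epithelial adhesion molecule Epcam was at 0.427 and 0.509 CPM in LDHA flox and 0.964 and 1.12 CPM in NAMPT flox cells with Cre without IL-1β. Cdh1, which encodes E-cadherin, was at 2.38 and 1.29 CPM in LDHA flox and 1.90 and 1.35 CPM in NAMPT flox cells, so neither defining marker was at 0. Without IL-1β, 4 of the 5 were called higher with Cre in each line (against 7.25% and 11.7% of all genes). Of the 5 effects, 1 was negative in LDHA flox cells, uncalled, and 0 were negative in NAMPT flox cells. With IL-1β all 5, Epcam and Cdh1 included, were called higher in both lines (against 23.0% and 27.7%). Only Krt8 of the 5 was called between the lines, and the median difference of the list was -0.78, against -0.0031 for all genes. In bulk RNA a gene at a higher level in some cells cannot be told apart from more cells of a type that express it, and whether epithelial cells took part was not tested.

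Among the genes with negative differences were a laminin receptor, 3 basement membrane genes, an actin crosslinker and a cyclin, all of which rose with Cre in NAMPT flox cells. Itga3, the laminin-binding integrin subunit, went from 67.1 and 70.6 to 146 and 144 CPM in LDHA flox and from 62.8 and 68.5 to 213 and 222 CPM in NAMPT flox cells. Itga3 differed by -0.65 ± 0.069 (SE, adjusted p = 4.88e-06). The differences were -0.54 ± 0.074 for the laminin chain Lama5, -0.63 ± 0.083 for Col18a1, -0.33 ± 0.070 for Col4a2 and -0.41 ± 0.073 for the filamin Flnc, whose LDHA flox Cre effect was 0.049 ± 0.052 (SE, adjusted p = 0.622). Ccnd1, which encodes the G1 cyclin D1, differed by -0.42 ± 0.063. All 6 also had negative differences with IL-1β, called for each but Ccnd1 (-0.048 ± 0.064, adjusted p = 0.753). These 6 genes were picked from the 45 after their values were seen. Col4a2 and Ccnd1 overlap other genes on the opposite strand. Without IL-1β, Flnc lost its call without 3 (-0.37 to -0.40) and Col4a2 without 9 of the 16 libraries in turn (-0.30 to -0.34), and the other 4 kept it. With IL-1β, Lama5 lost its call without 3 libraries (-0.31 to -0.34).

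Ibsp, Mmp13, Omd, Ogn, Hapln1 and Ptgs2 fell with Cre in both lines and farther in NAMPT flox cells, so their differences were positive. Omd and Ogn were picked from the 45 after their values were seen. Ibsp, which encodes the bone sialoprotein that nucleates mineral, was at 15.3 and 13.8 CPM with GFP and 10.4 and 11.2 with Cre in LDHA flox cells, and at 17.4 and 18.2 CPM with GFP and 5.03 and 5.46 CPM with Cre in NAMPT flox cells. Its difference of 1.32 ± 0.20 (SE, adjusted p = 8.47e-04) held without each library. Mmp13, the main collagenase of cartilage breakdown, was at 49.97 and 48.7 CPM with GFP and 34.4 and 32.6 CPM with Cre in LDHA flox and at 46.5 and 44.5 CPM with GFP and 18.5 and 16.7 CPM with Cre in NAMPT flox cells, a difference of 0.81 ± 0.084 (SE, adjusted p = 4.45e-06) that also held without each library. The small leucine-rich proteoglycans Omd and Ogn differed by 0.69 ± 0.13 and 0.45 ± 0.080, the link protein Hapln1 by 0.33 ± 0.071 and the prostaglandin synthase Ptgs2 by 0.44 ± 0.092. Leaving out 1 library at a time ended the call of Omd in 4 (0.60 to 0.74), Ogn in 3 (0.40 to 0.43), Hapln1 in 8 (0.31 to 0.35) and Ptgs2 in 4 (0.37 to 0.45) of 16 fits, and limma voom ended that of Ptgs2.

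Of 27 interferon-stimulated genes tested, 22 rose with Cre in LDHA flox cells, and 2, Ifi44 and Stat2, differed between the lines. Ifi44 was at 1.67 and 1.47 CPM with GFP and 5.40 and 7.03 with Cre in LDHA flox cells, but at 2.32 and 1.84 CPM with GFP and 1.58 and 1.55 CPM with Cre in NAMPT flox cells. Without IL-1β only the LDHA flox Cre libraries stood above 3 CPM, and the difference was 2.40 ± 0.41 (SE, adjusted p = 0.00411). Stat2, a subunit of the transcription factor that interferons activate, was at 18.9 and 16.7 CPM with GFP and 33.6 and 29.6 CPM with Cre in LDHA flox and 17.1 and 16.8 CPM with GFP and 20.1 and 17.6 CPM with Cre in NAMPT flox cells. Stat2 differed by 0.67 ± 0.13 (SE, adjusted p = 0.017). Of the 27 genes of the list that were tested, 2 were called higher (against 0.115% of all genes) and 0 lower by edgeR, and the median difference was 0.67 against -0.0031 for all genes. In LDHA flox cells the 22 that rose stand against 7.25% of all genes, with a median effect of the list of 1.26. In NAMPT flox cells 9 rose and 1 fell (against 11.7% and 11.2%), with a median of 0.24. The differences of the other 25 missed the threshold. Isg15, a ubiquitin-like modifier, had Cre effects of 1.72 ± 0.20 and 1.09 ± 0.23, both called, and a difference of 0.63 ± 0.31 (SE, adjusted p = 0.524). Ifit1, which binds foreign RNA, differed by 1.36 ± 0.42 (SE, adjusted p = 0.21) and the tether Bst2 by 0.78 ± 0.20 (SE, adjusted p = 0.123). With GFP, 3 of the 27 were already higher in LDHA flox cells (against 1.53% of all genes), with a summed level of 144 and 137 CPM against 118 and 111 CPM in the GFP libraries, and 259 and 260.3 against 138 and 137 CPM with Cre. With IL-1β 0 of the 27 differed in edgeR, the median difference was 0.047, and 13 of the 27 were already higher in LDHA flox than in NAMPT flox GFP libraries (against 2.79% of all genes). Ifi44 lost its call without the first NAMPT flox GFP library (2.18, adjusted p = 0.104) or the second LDHA flox Cre library (2.15, 0.0672), and Stat2 without any of the 4 Cre libraries or the second NAMPT flox GFP library of that condition (0.61 to 0.70).

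The promoters of 3 of these genes are shown because they match the core of the interferon-stimulated response element, the motif bound by the complex that contains STAT2. Each run is the 250 bases before the RefSeq start (GRCm38.p6), 5′ to 3′ on the strand of the gene, at chr10:128270248-128270497, plus strand for Stat2, chr4:156200819-156201068, minus strand for Isg15 and chr19:34640639-34640888, plus strand for Ifit1. Capitals mark every match to GAAA, any 2 bases and GAAA again, or to the reverse complement, TTTC, any 2 bases and TTTC.
Stat2: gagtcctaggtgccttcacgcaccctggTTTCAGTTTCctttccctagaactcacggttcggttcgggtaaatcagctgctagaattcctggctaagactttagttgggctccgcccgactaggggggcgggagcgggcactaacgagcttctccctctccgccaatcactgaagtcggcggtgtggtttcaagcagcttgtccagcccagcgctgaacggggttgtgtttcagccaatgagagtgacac
Isg15: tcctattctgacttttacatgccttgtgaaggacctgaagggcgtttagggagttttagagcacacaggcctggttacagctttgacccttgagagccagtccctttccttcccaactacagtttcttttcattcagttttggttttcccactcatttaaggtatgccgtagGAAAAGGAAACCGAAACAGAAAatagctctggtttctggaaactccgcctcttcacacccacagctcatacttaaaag
Ifit1: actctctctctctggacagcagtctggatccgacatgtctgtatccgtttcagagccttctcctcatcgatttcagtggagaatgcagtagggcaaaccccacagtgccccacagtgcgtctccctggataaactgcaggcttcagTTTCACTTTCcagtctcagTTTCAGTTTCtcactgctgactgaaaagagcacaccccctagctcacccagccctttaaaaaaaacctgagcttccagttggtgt
The stretch held 1 match in Stat2, 3 overlapping matches in Isg15 and 2 in Ifit1. Of the 22 tested genes of the list with a promoter in the RefSeq table, 11 held at least 1 match, against 2.98% of all 32851 promoters of the table. Ifi44 was among those without a match in this window. A gene counted if any of its promoters in the table matched, whereas the 2.98% is a share of single promoters. A match describes the letters of the promoter and does not show binding in these cells.

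**Figure D3:**
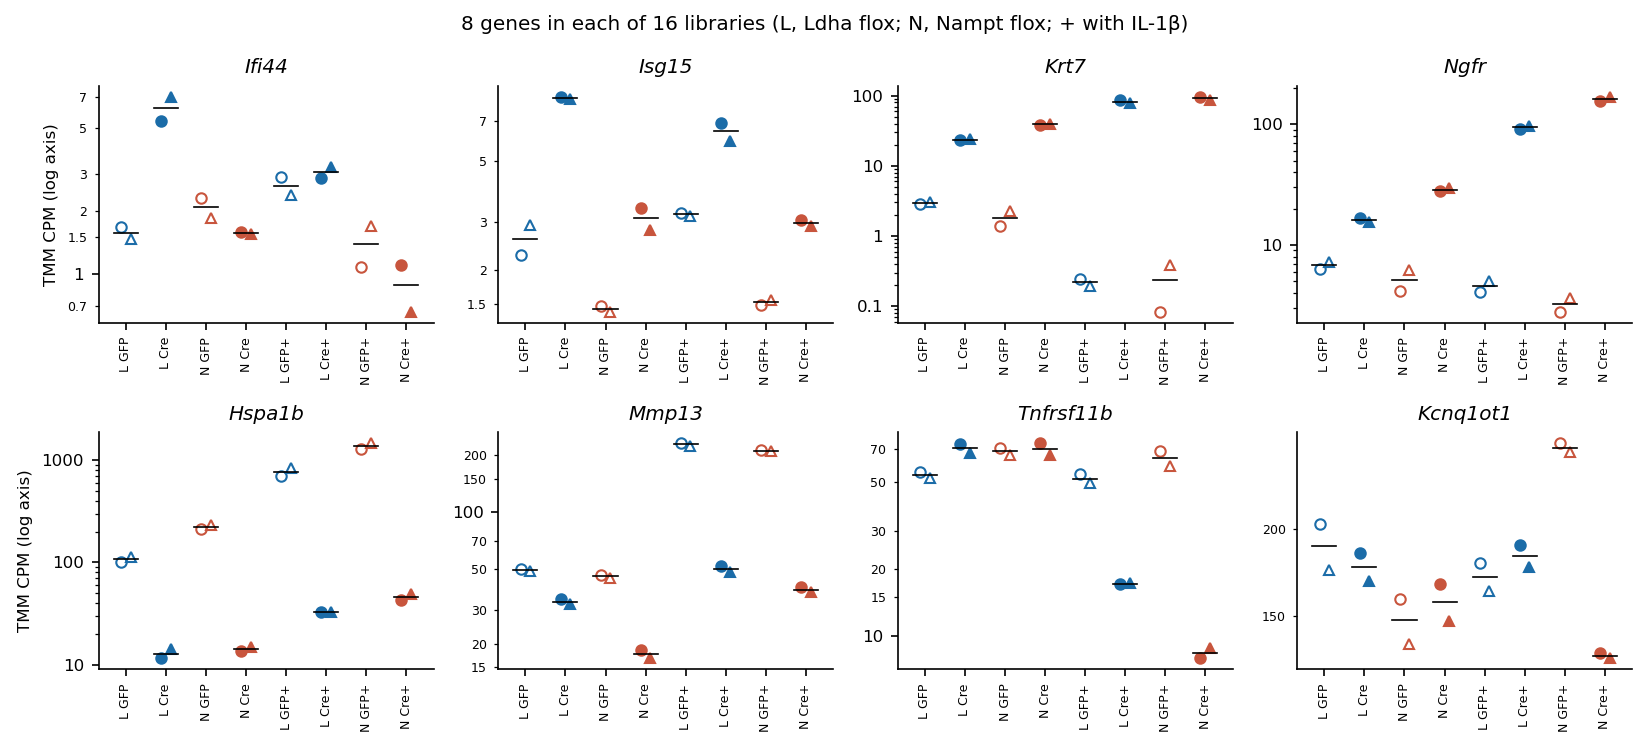
CPM after TMM scaling (y axes, log scale) of 8 genes in the 16 libraries. L is LDHA flox (blue), N is NAMPT flox (red), + is with IL-1β, open symbols are GFP and filled symbols Cre, circles are set 1 and triangles set 2, and bars are means. Ifi44 was above 3.5 CPM only in the LDHA flox Cre libraries without IL-1β, and Kcnq1ot1 was above 250 CPM only in the NAMPT flox GFP libraries with IL-1β.

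Of 17 heat shock genes, 7 fell with Cre in LDHA flox and 8 in NAMPT flox cells (against 7.66% and 11.2% of all genes), and with IL-1β 12 and 13 fell (against 22.3% and 27.6%). In each line and condition 3 of the 17 rose, against 7.25% and 11.7% of all genes without and 23.0% and 27.7% with IL-1β. Hspa1b, an inducible HSP70, was at 101 and 113 CPM with GFP and 11.6 and 14.2 with Cre in LDHA flox cells, and at 213 and 231 CPM with GFP and 13.6 and 14.8 CPM with Cre in NAMPT flox cells. The GFP libraries of the lines were farther apart than the Cre libraries, and the difference was 0.90 ± 0.090 (SE, adjusted p = 3.28e-06). With IL-1β the levels were 697 and 827 CPM with GFP and 32.7 and 32.8 CPM with Cre in LDHA flox and 1271 and 1457 CPM with GFP and 43.0 and 48.6 CPM with Cre in NAMPT flox cells. Hspa1b differed by 0.37 ± 0.077 (SE, adjusted p = 0.00736). Hspa1a differed by 0.71 ± 0.14 (SE, adjusted p = 0.0221) without IL-1β, but the 2 genes are near-identical, their reads may be split between them, and the call was lost without 5 of 16 libraries in turn (0.62 to 0.73) and under limma voom. Of the 17 heat shock genes tested, 2 were called higher without IL-1β (against 0.115% of all genes), and 7 with it (against 1.98%), with a median difference of 0.27 against 0.0022 for all genes. The 7 were Hspa1b, Hspa8 (0.20 ± 0.058), Hsph1 (0.32 ± 0.072), Hspb1 (0.47 ± 0.086), the mitochondrial chaperonins Hspd1 (0.27 ± 0.077) and Hspe1 (0.49 ± 0.095), and the haem oxygenase Hmox1 (0.30 ± 0.063). With GFP, 6 of the 17 without and 9 with IL-1β (against 1.47% and 2.73% of all genes) were lower in LDHA flox than in NAMPT flox cells. Hspb1 and Hspe1 kept their calls without each library, Hspa1b lost it with IL-1β without either the first LDHA flox GFP or the first LDHA flox Cre library (0.32, adjusted p = 0.0512, and 0.27, 0.0795), Hmox1 without the first LDHA flox GFP library (0.27, 0.0514), Hsph1 without 3 (0.26 to 0.29), and Hspa8 and Hspd1 lost it without 14 and 11 of 16. The promoter of Hspe1 (chr1:55087898-55088147, plus strand) is shown as an example of the heat shock element, the inverted repeat that the heat shock factors bind, with capitals on matches to GAA, TTC and GAA with any 2 bases between neighbours, or to the reverse complement, TTC, GAA and TTC with the same gaps.
Hspe1: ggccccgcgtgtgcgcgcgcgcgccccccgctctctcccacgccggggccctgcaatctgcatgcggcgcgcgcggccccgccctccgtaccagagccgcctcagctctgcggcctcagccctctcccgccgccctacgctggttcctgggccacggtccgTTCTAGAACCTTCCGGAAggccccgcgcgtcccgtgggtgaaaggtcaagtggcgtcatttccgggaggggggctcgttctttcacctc
Its 2 matches overlap, and 2 of the 12 tested heat shock genes with a promoter in the table held a match, Hspe1 and Hspd1, against 0.466% of all promoters. Here too the share is of single promoters, and whether the windows of these 2 genes overlap was not tested.

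With IL-1β, 859 genes (5.21% of those tested) differed between the deletions, 327 with a positive and 532 with a negative difference. Both Cre effects were called with the same sign for 593 of them, and the NAMPT flox effect was the larger in 572 of these, 355 that rose and 217 that fell. Only the NAMPT flox effect was called for 203, only the LDHA flox effect for 44, and 19 had called effects of opposite sign. The lines differed already with GFP in 177 of the 859, against 911 (5.52%) of all genes, and stood farther apart among Cre than GFP libraries in 627. Here too the GFP levels are part of the tested difference, so a larger share is built in. Of the 45 genes called without IL-1β, 21 were called here too, which is 46.67% of the 45 and 2.445% of the 859. All 21 had the same sign in both conditions, against 59.86% of all genes. The 21 include the targets Ldha and Nampt and the 3 Ldha pseudogenes, whose signs follow from the deletions. Differences of at least 1 on the log2 scale were called for 71 genes.

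The genes named with positive differences, all but Stk32a, had both Cre libraries below both GFP libraries in NAMPT flox cells. Tnfrsf11b encodes osteoprotegerin, the decoy receptor that restrains osteoclast formation. It was at 54.0 and 49.1 CPM with GFP and 17.2 and 17.3 with Cre in LDHA flox cells, and at 68.5 and 58.9 CPM with GFP and 7.90 and 8.77 CPM with Cre in NAMPT flox cells. All 4 Cre libraries were below all 4 GFP libraries, and the difference was 1.37 ± 0.12 (SE, adjusted p = 7.89e-08). Prex2, a Rac exchange factor, fell in NAMPT flox cells, from 11.4 and 10.7 to 6.32 and 5.08 CPM, and was at 8.65 and 8.39 CPM with GFP and 9.36 and 9.50 CPM with Cre in LDHA flox cells. Prex2 differed by 1.08 ± 0.18 (SE, adjusted p = 7.71e-04). Slc16a4, of the monocarboxylate transporter family, was at 3.27 and 2.52 CPM with Cre in LDHA flox and 1.47 and 1.62 CPM in NAMPT flox cells, from 5.40 and 4.17 CPM in LDHA flox and 5.73 and 6.09 CPM in NAMPT flox cells with GFP. Slc16a4 differed by 1.22 ± 0.30 (SE, adjusted p = 0.0179). Efcab1 differed by 1.5 ± 0.34 (SE, adjusted p = 0.0111), the zinc finger gene Zfp383 by 1.17 ± 0.30 (SE, adjusted p = 0.0252) and the predicted gene Gm10800 by 1.56 ± 0.38 (SE, adjusted p = 0.0182). Stk32a, Rec8 and Cyp2u1, all at low levels, rose with Cre in LDHA flox cells. Stk32a, a kinase gene, went from 0.164 and 0.145 to 1.18 and 1.36 CPM there, was at 0.789 and 1.04 CPM with GFP and 1.08 and 0.570 CPM with Cre in NAMPT flox cells, and differed by 3.07 ± 0.76 (SE, adjusted p = 0.0188), the cohesin subunit Rec8 by 2.64 ± 0.66 (SE, adjusted p = 0.0206) and the cytochrome P450 Cyp2u1 by 1.55 ± 0.40 (SE, adjusted p = 0.0234). Cyp2u1 overlaps 4930534D22Rik on the opposite strand, and strand use in the counting was not given in the sources used here. Tnfrsf11b and Prex2 kept their calls without each library, whereas Efcab1, Slc16a4, Gm10800, Stk32a and Rec8 lost them in 4 and Cyp2u1 and Zfp383 in 6 of 16 fits, each on leaving out an IL-1β library, and Zfp383 also under limma voom. Their lowest values in these fits were 0.83 for Efcab1, 1.00 for Slc16a4, 1.24 for Gm10800, 2.65 for Stk32a, 2.07 for Rec8, 1.32 for Cyp2u1 and 0.94 for Zfp383.

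Apart from Ldha, the 9 genes named by the rule with negative differences rose with Cre in NAMPT flox cells, and 7 of them also rose, by less, in LDHA flox cells. Sema3f, a secreted guidance cue, was at 9.50 and 9.85 CPM with GFP and 9.22 and 9.34 CPM with Cre in LDHA flox cells and went from 5.93 and 5.70 to 13.8 and 16.5 CPM in NAMPT flox cells. Sema3f differed by -1.42 ± 0.18 (SE, adjusted p = 4.40e-05). The LDHA flox GFP and Cre libraries of Sema3f lay within 9.2 to 9.9 CPM, between those of the other line. Laptm5, a lysosomal membrane gene of blood cells, was at a low level. Scaled over the 24 libraries with virus, it was at 3.6 and 5.0 CPM with GFP and 4.3 and 5.2 CPM with Cre in LDHA flox cells. These libraries were above the NAMPT flox GFP libraries and, unlike those of Sema3f, overlapped the NAMPT flox Cre libraries. Laptm5 was at 1.78 and 1.88 CPM with GFP and 5.16 and 6.44 with Cre in NAMPT flox cells, and differed by -1.47 ± 0.32 (SE, adjusted p = 0.0085). The 8 tested markers of macrophages or blood summed to 35.4 and 33.1 CPM with GFP and 19.6 and 19.4 CPM with Cre in the same libraries, and went down where Laptm5 went up. Ngfr rose in both lines, to 91.9 and 97.4 CPM in LDHA flox and 157 and 169.8 CPM in NAMPT flox cells, from 4.04 and 5.00 CPM in LDHA flox and 2.78 and 3.63 CPM in NAMPT flox cells, and its difference of -1.29 ± 0.19 (SE, adjusted p = 2.51e-04) was nearly the one without IL-1β. Nos1, the neuronal nitric oxide synthase, rose from 1.86 and 2.09 to 9.84 and 8.82 CPM and from 1.41 and 1.42 to 17.1 and 17.4 CPM. Nos1 differed by -1.34 ± 0.28 (SE, adjusted p = 0.00636). The remaining 5 rose in both lines and differed by -1.27 ± 0.18 for Fbxo2, an F-box protein of glycoprotein disposal, -1.22 ± 0.21 for the keratin Krt80, -1.12 ± 0.19 for the adhesion receptor Adgrg1, -1.09 ± 0.22 for the neurofilament Nefm and -1.04 ± 0.20 for the immediate-early gene Arc. Nefm and Nos1 overlap Nefl and Gm26995 on the opposite strand. Of these 9 genes only Laptm5, Nefm and Nos1 lost their call without a library, Laptm5 without the second (-1.39, adjusted p = 0.0522) and Nefm and Nos1 without the first NAMPT flox GFP library with IL-1β (-0.91, 0.0587 and -1.25, 0.0599).

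**Figure D4:**
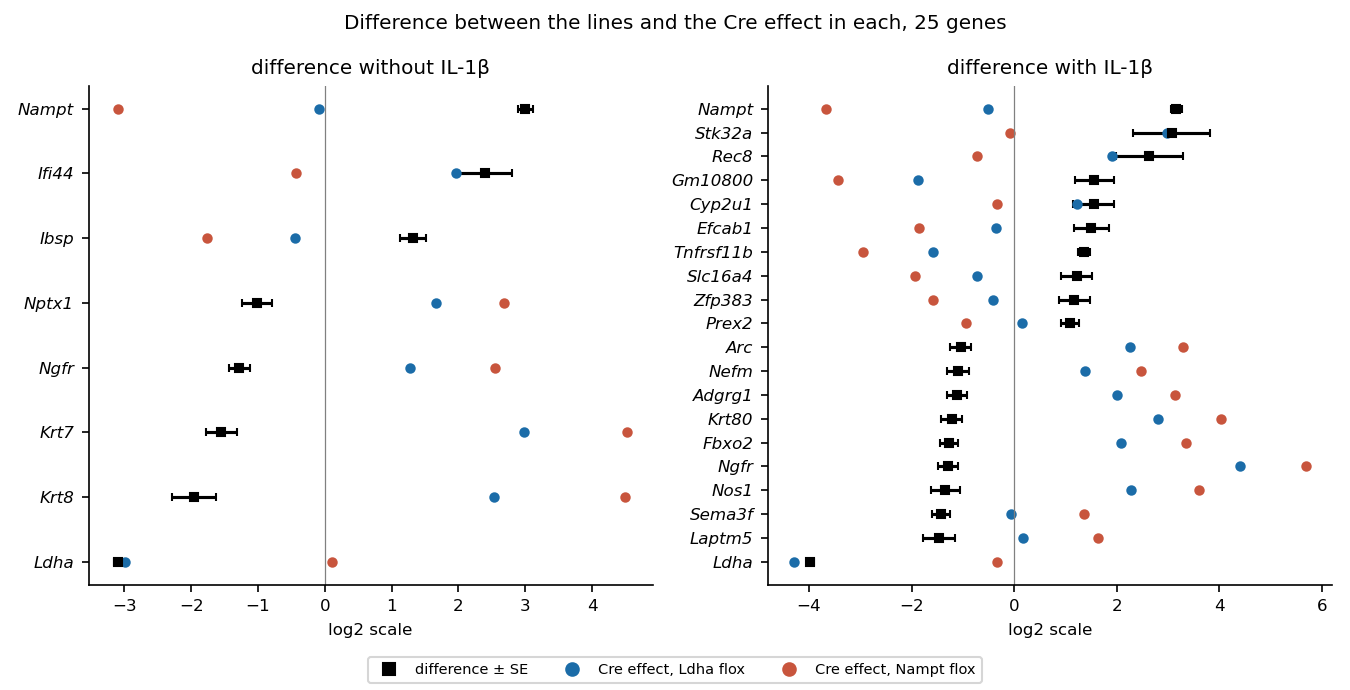
Difference between the lines (black squares, with bars of 1 SE) and the Cre effect in LDHA flox (blue) and NAMPT flox (red) cells, all as log2 values on the x axes, for 25 genes, without (left) and with (right) IL-1β. For most genes both Cre effects lie on the same side of 0 and the red point lies farther out, and Ldha, Nampt, Ifi44, Sema3f, Prex2 and the low genes Stk32a, Rec8 and Cyp2u1 are among those where 1 effect lies near or across 0.

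The difference itself changed with IL-1β for 10 genes (0.0606% of those tested), 8 upward (0.0485%) and 2 downward (0.0121%). Kcnq1ot1 is the imprinted non-coding RNA of the Kcnq1 locus. Without IL-1β its levels were 203 and 175 CPM with GFP and 185 and 168 CPM with Cre in LDHA flox and 159 and 137 CPM with GFP and 167 and 148 CPM with Cre in NAMPT flox cells. With IL-1β they were 179 and 163 CPM with GFP and 189.7 and 176 CPM with Cre in LDHA flox, but 265 and 257 CPM with GFP and 133 and 131 CPM with Cre in NAMPT flox cells. The NAMPT flox GFP libraries with IL-1β were the highest of the 16 and the NAMPT flox Cre libraries with IL-1β the lowest, and the change was 1.27 ± 0.10 (SE, adjusted p = 2.33e-07). Kcnq1ot1 overlaps Kcnq1 on the opposite strand. Malat1, an abundant nuclear RNA, changed the same way by 0.45 ± 0.080, with 8784 and 8988 CPM against 5209 and 4894 CPM in NAMPT flox cells with IL-1β. The others that changed upward were Tnfrsf11b (1.00 ± 0.15), Pappa (0.90 ± 0.13), a protease that frees insulin-like growth factors, the repressor Zbtb20 (0.67 ± 0.097), Stard13 (0.73 ± 0.13), Osbpl3 (1.06 ± 0.20) and Cyp1b1 (0.58 ± 0.10). Ldha (-0.88 ± 0.088) and the tetraspanin Cd82 (-0.85 ± 0.13) changed downward. Cyp1b1 was called without IL-1β at -0.34 ± 0.072 and had the opposite sign, uncalled, with it (0.24 ± 0.072, adjusted p = 0.0587), and its call without IL-1β was lost without 10 of 16 libraries in turn (adjusted p up to 0.26). Osbpl3, Stard13, Malat1 and Cyp1b1 lost their call in 13, 11, 10 and 7 of 16 fits with 1 library left out, and the other 6 kept it. Osbpl3 also missed the threshold under RLE scaling, with ribosomal protein genes left out and with the block within each line (adjusted p = 0.0514, 0.0508 and 0.0565).

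Few genes of the lactate and NAD pathways were called beyond the 2 targets. Of the 26 genes of lactate and pyruvate handling, 1 was called lower without IL-1β (Ldha, against 0.158% of all genes) and 2 with it (against 3.23%), Ldha and Pdhb, a subunit of pyruvate dehydrogenase that rose with Cre in both lines (1.14 ± 0.070 and 1.76 ± 0.073) and differed by -0.62 ± 0.10 (SE, adjusted p = 7.71e-04). Pdhb was at 85.8 and 72.7 CPM with Cre in LDHA flox and 106 and 96.4 CPM in NAMPT flox cells. Of 15 tested genes of NAD synthesis and salvage, Nampt alone was called without IL-1β, and with it Nampt, the adenylyltransferase Nmnat3 (0.87 ± 0.24) and the ectonucleotidase Nt5e (0.45 ± 0.086) were called higher (against 1.98% of all genes). Nmnat3 fell with Cre in both lines, from 48.8 and 46.8 to 5.71 and 5.09 CPM and from 51.6 and 80.5 to 4.36 and 3.59 CPM, and the call was lost without 5 of 16 libraries in turn (0.52 to 0.97) and under limma voom. None of the 22 NAD consumers, which include sirtuins and PARPs, was called by edgeR in either condition, and their median difference was 0.019 without and -0.058 with IL-1β.

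With IL-1β, 4 of 23 genes of glycolysis and glucose uptake were called with a negative difference (against 3.23% of all genes) and 0 with a positive one (against 1.98%). Pfkfb3, which makes the activator of phosphofructokinase, was at 117 and 111 CPM with GFP and 116 and 104 with Cre in LDHA flox cells, and at 86.3 and 89.5 CPM with GFP and 128 and 121 CPM with Cre in NAMPT flox cells. The LDHA flox libraries lay between the GFP and the Cre libraries of the NAMPT flox line without overlap, and the difference was -0.56 ± 0.080 (SE, adjusted p = 2.16e-04). Pfkp (-0.26 ± 0.075), Aldoa (-0.19 ± 0.056) and Pkm (-0.19 ± 0.053) differed by less and lost their calls without 14, 14 and 12 of 16 libraries in turn. Pfkp also lost it under DESeq2. With GFP and IL-1β, 11 of the 23 genes were higher in LDHA flox cells (against 2.79% of all genes), so the starting level differed too. The median difference of the list was -0.17, with 0 of the 23 called without IL-1β. A list of 20 hypoxia genes held Hif1a and Epas1, which encode subunits of hypoxia-inducible factors, beside targets of the factors. Of the 20, 1 was called higher and 4 lower with IL-1β (against 1.98% and 3.23% of all genes), and 0 without it. The 1 higher was Hif1a itself (0.24, adjusted p = 0.0391), and the 4 lower were Epas1 (-0.38, adjusted p = 0.0432) and the targets Egln3, Mxi1 and Ndrg1. Hif1a and Epas1 lost their calls without 10 and 11 of 16 libraries in turn, and Epas1 also under DESeq2. Of 18 citrate cycle genes and of 48 nuclear respiratory chain genes 1 each was called lower with IL-1β, near the share of all genes, and 0 of the 13 mitochondrially encoded ones were called.

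Most cartilage genes fell with Cre in both lines. Acan and Col2a1 fell in both, and their differences of -0.019 ± 0.065 and -0.087 ± 0.047 missed the threshold (adjusted p = 0.929 and 0.325 with IL-1β). With IL-1β, 23 of 29 cartilage genes fell in LDHA flox and 23 in NAMPT flox cells (against 22.3% and 27.6% of all genes), with medians of -0.86 and -0.86. Of the 29, 3 were called with a positive difference (against 1.98% of all genes), all of them regulators of chondrocytes that fell farther in NAMPT flox cells. They were Trps1 (0.67 ± 0.078, adjusted p = 1.22e-05), Sox6 (0.48 ± 0.087, adjusted p = 0.00219) and Sox5 (0.46 ± 0.12, adjusted p = 0.0262). Trps1, a GATA-type repressor, was at 159 and 137 CPM with GFP and 55.0 and 51.8 CPM with Cre in LDHA flox cells and at 163 and 158 CPM with GFP and 37.2 and 35.6 CPM with Cre in NAMPT flox cells. Col10a1, the collagen of hypertrophic cartilage, was the 1 list member called with a negative difference (against 3.23% of all genes), -0.29 ± 0.072 (SE, adjusted p = 0.02). The median difference of the list was -0.007. Sox5 lost its call without 6 (0.38 to 0.49) and Col10a1 without 4 (-0.23 to -0.29) of 16 libraries in turn, and both overlap other genes on the opposite strand.

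Of the 23 matrix proteases and inhibitors, Adamts5 (0.45 ± 0.13) had a positive and Mmp9 (-0.99 ± 0.23), Timp2 (-0.26 ± 0.071) and Ctsb (-0.37 ± 0.063) had negative differences with IL-1β (called members, against 1.98% and 3.23% of all genes). Adamts5 lost its call without 9, Timp2 without 11 and Mmp9 without 4 of 16 libraries in turn, and Ctsb kept it. The stromelysin Mmp3 differed by 0.12 ± 0.083 (SE, adjusted p = 0.457), and Mmp13, which differed without IL-1β, missed the threshold with it (0.25 ± 0.076, adjusted p = 0.0546). Of 25 cytokines and chemokines tested, Tnfrsf11b and Il6 were called higher with IL-1β (against 1.98% of all genes) and 0 lower. Il6 was at 22.6 and 24.4 CPM with GFP and 5.53 and 6.20 with Cre in LDHA flox cells, and at 32.1 and 31.3 CPM with GFP and 4.50 and 4.25 CPM with Cre in NAMPT flox cells. The starting level was higher and the end level lower in NAMPT flox cells, a difference of 0.84 ± 0.23 (SE, adjusted p = 0.0333) whose call was lost without any 1 of the 8 libraries with IL-1β (0.74 to 0.97). Nfkbiz, which encodes the NF-κB cofactor IκB-ζ, fell in both lines, from 180.5 and 169 to 73.3 and 70.0 CPM and from 209.7 and 214 to 71.7 and 63.9 CPM, a difference of 0.35 ± 0.10 (SE, adjusted p = 0.042), whose call was lost without 9 of 16 libraries in turn (0.29 to 0.40) and under filterByExpr. Ptges, the inducible prostaglandin E synthase, rose in both and more in NAMPT flox cells (-0.47 ± 0.093). The median difference was 0.10 for the cytokines and -0.16 for the 30 NF-κB, nitric oxide and prostaglandin genes, and both lists had 1 or 0 members called without IL-1β.

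Among redox genes, the enzymes that limit glutathione synthesis fell in both lines with IL-1β, and farther in LDHA flox cells. Gclc, the catalytic subunit, was at 176 and 159.5 CPM with GFP and 66.7 and 64.0 with Cre in LDHA flox cells, and at 142 and 137 CPM with GFP and 75.6 and 71.4 CPM with Cre in NAMPT flox cells. Gclc differed by -0.43 ± 0.075 (SE, adjusted p = 0.00161). Its modifier subunit Gclm differed by -0.31 ± 0.084 and the secreted peroxidase Gpx3 by -0.47 ± 0.096. The transketolase Tkt (-0.27 ± 0.061) and the transferase Gstp1 (-0.29 ± 0.082) also had negative differences, while the quinone reductase Nqo1 had a positive one (0.41 ± 0.085). These 6, 1 higher and 5 lower (against 1.98% and 3.23% of all genes), were the called members of 30 tested NRF2 targets and glutathione genes with IL-1β, where the median difference was 0.0014, and 0 of the 30 were called without it. Slc7a11 and Hmox1, also known as NRF2 targets, were counted in other lists, are named here after their values were seen, and had positive differences with IL-1β. Slc7a11, the cystine transporter, differed by 0.59 ± 0.098 (SE, adjusted p = 9.66e-04) and kept its call without each library, and Hmox1 differed by 0.30 ± 0.063. Gclc and Gpx3 kept their calls without each library, Nqo1 lost it without 1, Tkt without 3 and Gclm and Gstp1 without 8 of 16. The second NAMPT flox Cre library with IL-1β was the one without which Nqo1 was not called (0.36, adjusted p = 0.0502).

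The remaining lists held few called genes, to be read against 1.98% higher and 3.23% lower over all genes with IL-1β. With IL-1β, Igf1 (0.76 ± 0.21) was higher and Igfbp4 (-0.54 ± 0.074), Igfbp7 (-0.41 ± 0.10) and Tgfb1 (-0.56 ± 0.098) were lower, of 29 growth factor modulators. Igf1 lost its call without 7 libraries in turn and under DESeq2 and limma voom, and Igfbp7 without 5 libraries. Counts of higher and lower genes with IL-1β were 2 and 1 of 32 integrated stress response genes, 2 and 0 of 25 p53 targets, 2 and 2 of 34 replication and mitosis genes, 0 and 2 of 19 endoplasmic reticulum chaperones, 0 and 3 of 26 cholesterol synthesis genes and 0 and 1 of 17 clock genes, and 0 of each list were called without it. Of the markers of other cells, the 10 of fibroblasts or perichondrium had Postn higher without IL-1β and Dcn higher and Tnc lower with it, and Ibsp was the called member of the 5 tested of osteoblasts, without IL-1β. Postn lost its call without 11, Dcn without 10 and Tnc without 3 of 16 libraries in turn, and Dcn also under limma voom. The skeletal muscle gene Tnnt3 was lower with IL-1β (-0.71 ± 0.18), where the summed level of the 6 muscle markers was 31.4 and 34.3 CPM in LDHA flox and 55.2 and 56.3 CPM in NAMPT flox GFP libraries, and the call was lost without 4 libraries in turn and under limma voom. The 8 tested markers of macrophages or blood and the 4 of endothelium had 0 calls in edgeR in both conditions. Fibroblast collagen was present in every library, with Col1a1 at 1513 to 3670.0 CPM, and its part in the differences was not tested.

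**Figure D5:**
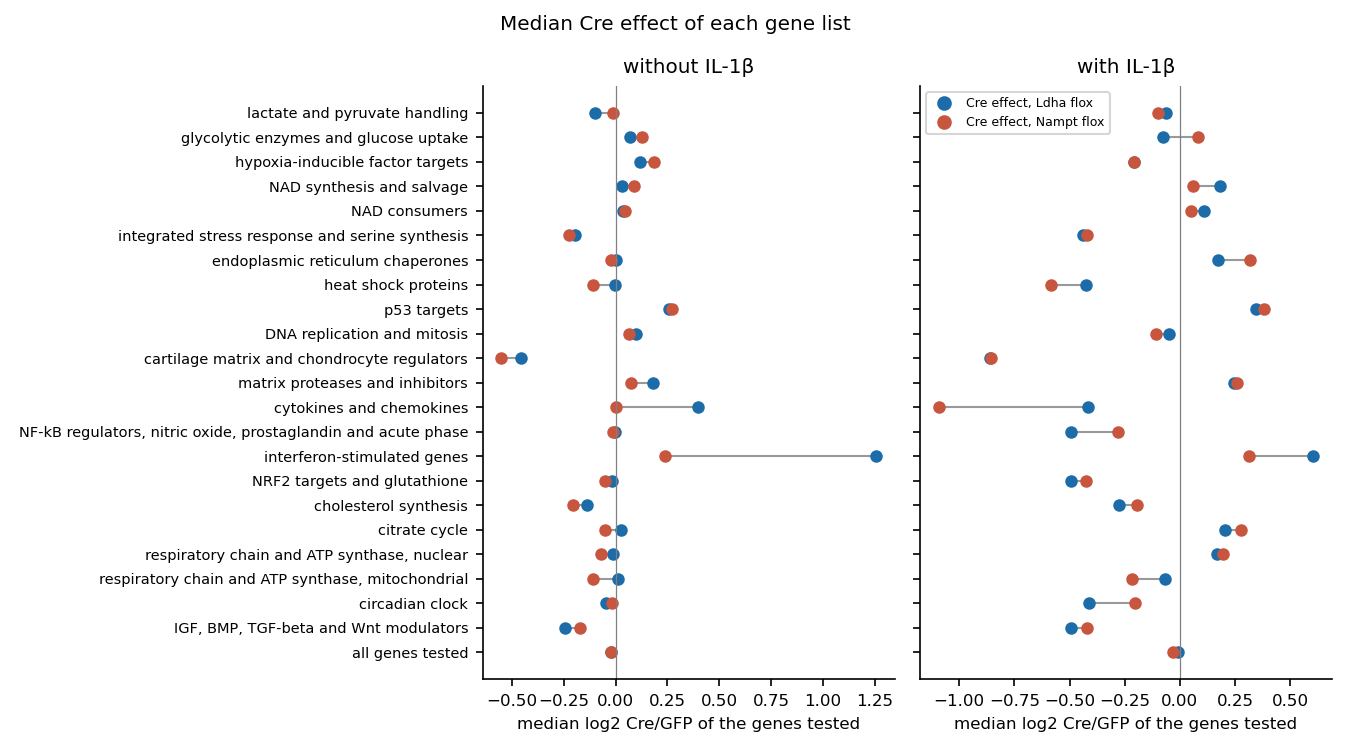
Median Cre effect (log2 of Cre over GFP, x axes) of the tested genes of each list (y axes) in LDHA flox (blue) and NAMPT flox (red) cells, without (left) and with (right) IL-1β. Interferon-stimulated genes without IL-1β, at 1.26 and 0.24, and cytokines and chemokines with IL-1β, at -0.42 and -1.09, have the widest gaps between the 2 medians, but the median of the per-gene differences was 0.67 for the first and 0.10 for the second, where 16 of 25 were positive and 2 were called.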

How the data were processed

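RNA from the chondrocyte cultures was depleted of ribosomal RNA and sequenced by the authors, who aligned reads with STAR and counted unique reads per Ensembl gene with featureCounts (Subread) on GRCm38. The submitters' processing notes give STAR 2.0.4b and featureCounts 1.45, and the study's methods give other versions of both. Strand use in counting was not given in the sources used here. The deposited tables hold gene counts, the authors' CPM and the authors' RPKM. Only the counts were analysed, and the deposited CPM equalled count over total in all 32 libraries. Of 41388 genes, 40340 were named in GENCODE M21, and 355 ribosomal RNA genes were left out.

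Counts of the 16 libraries were fitted with edgeR 4.0.16 (R 4.3.3; quasi-likelihood, TMM, 2-sided tests) as 8 groups plus the library set, on the 16491 genes above 1 CPM in at least 1 library. This filter is looser than a group-wise one and keeps low genes. The set is the title style of the labels, which is also the replicate number in these lines, and is the replicate block. Deviations from group means correlated between same-set libraries at 0.417 to 0.663 within lines (12 pairs) and 0.437 to 0.599 between lines (16 pairs), so the block was kept. Set 1 libraries held 23783890 to 39959888 counts and set 2 libraries 15830658 to 25772657, which limits precision for genes near 1 CPM. DESeq2 1.42.0, limma 3.58.1 (voom with quality weights), RLE scaling, 2 filters, other blocks and other library choices were run as alternatives.

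Genes named by rule were the called protein-coding genes with a log2 difference of at least 1 in size and the same sign in both sets, up to 10 a direction by p. The members and gene lists were chosen with earlier results of these data known. Promoters are from RefSeq (GRCm38.p6) and were searched on both strands. Figures used matplotlib 3.10.9.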

Additional observations from a re-analysis of the deposited data

Results flagged for a closer look

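Each result here is a difference between the effects of the same contrast in 2 lines, found by the test of that difference itself (edgeR, adjusted p of 0.05 or less). It held for 45 genes without and 859 genes with IL-1β, and the difference changed with IL-1β for 10 genes.

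Without IL-1β, the log2 differences of the genes named by the rule were 3.00 for Nampt, 1.32 for Ibsp and 2.40 for Ifi44, and -3.09 for Ldha, -1.28 for Ngfr, -1.55 for Krt7, -1.96 for Krt8 and -1.01 for Nptx1. With IL-1β, the positive ones were 3.16 for Nampt, 1.37 for Tnfrsf11b, 1.08 for Prex2, 1.5 for Efcab1, 1.22 for Slc16a4, 1.56 for Gm10800, 3.07 for Stk32a, 2.64 for Rec8, 1.55 for Cyp2u1 and 1.17 for Zfp383. The negative ones with IL-1β were -3.97 for Ldha, -1.42 for Sema3f, -1.27 for Fbxo2, -1.29 for Ngfr, -1.12 for Adgrg1, -1.22 for Krt80, -1.04 for Arc, -1.09 for Nefm, -1.34 for Nos1 and -1.47 for Laptm5. The change of the difference with IL-1β was 1.27 for Kcnq1ot1, 1.06 for Osbpl3, 1.00 for Tnfrsf11b, 0.90 for Pappa, 0.73 for Stard13, 0.67 for Zbtb20, 0.58 for Cyp1b1, 0.45 for Malat1, -0.85 for Cd82 and -0.88 for Ldha.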

How the results depend on the processing

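The counts of called genes depended most on the replicate block and on which libraries shared the fit. With no replicate block, the calls fell to 14 without IL-1β, 43 with it and 0 for the change with IL-1β (803 genes at an unadjusted p under 0.05, where DESeq2 with the block called 30 and limma voom 18), and to 1315 and 2399 for the Cre effects without IL-1β in LDHA flox and NAMPT flox cells and 136 and 290 for the GFP libraries without and with it. With all 32 libraries in 1 fit they were 1, 3 and 0 (271 unadjusted), 89 and 300 for the Cre effects without and 2822 and 4934 with IL-1β, and 12 and 9 for the GFP libraries. The cause was not tested. The block fitted within each line gave 54 and 856. Without IL-1β, limma voom called 92 and no filter 166 genes, and for the change filterByExpr called 16 and no filter 76. DESeq2 (59 and 755), RLE scaling (46 and 874), filterByExpr (46 and 869), the 8 libraries of 1 treatment (55 and 723) and leaving out ribosomal protein genes, Gm26917 and Gm42418 (48 and 878) stayed within 1.5 times of 45 and 859.

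Leaving out 1 library at a time gave 20 to 241 genes without IL-1β, the most without the second LDHA flox GFP library and 20 to 29 without any of the LDHA flox Cre, NAMPT flox Cre or NAMPT flox GFP libraries of that condition. With IL-1β it gave 327 to 1156, with 327 without the second NAMPT flox Cre, 328 and 498 without the second and first NAMPT flox GFP, 371 and 451 without the LDHA flox GFP and 459 without the first LDHA flox Cre library. The change had 6 to 19, the Cre effects without IL-1β 1472 to 2550 and 2380 to 4042, those with it 5870 to 7699 and 7680 to 9277, and the GFP libraries 212 to 750 and 380 to 1122.

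Of 160 called single-gene results, 155 kept their call with DESeq2, 148 with limma voom, 157 with RLE, 155 with filterByExpr, 153 with no filter, 159 with the block within each line, 35 with no replicate block and 4 with all 32 libraries, and 1957 of 2560 leave-one-out results kept it. None changed sign under these alternatives. For a difference without or with IL-1β, the leave-one-out results include fits that left out a library of the other treatment. Such fits kept every library that forms the difference and are a weaker check. The leave-one-out share kept is therefore no measure of how steady a call is to loss of its own libraries. In library set 1 or set 2 alone, 26 and 29 of 150 differences lay more than 1 SD (of the values of the 2 sets) from the fitted value. That SD grows with the gap between the sets, so these counts do not measure how well the sets agree. With 2 libraries a group and the lowest at 15830658 counts, genes near 1 CPM, such as Stk32a, Rec8 and Cyp2u1, had SEs of 0.40 to 0.76.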

Other observations

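With IL-1β, genes with a positive difference had a longer median span than those with a negative one. The 287 protein-coding genes called higher spanned a median of 46.2 kb in GENCODE M21 and 33.1% of them spanned over 100 kb, against 20.3 kb and 7.77% of the 528 called lower and 24.1 kb and 13.9% of all 14028 protein-coding genes tested. Genes of the long non-coding RNA classes were 26 of the 327 called higher (7.95%) and 1 of the 532 called lower (0.188%), against 6.69% of all genes tested. They include Kcnq1ot1 (1.09 ± 0.074, adjusted p = 1.47e-09), Malat1 (0.60 ± 0.057, adjusted p = 5.88e-07), Neat1 (0.67 ± 0.068, adjusted p = 1.66e-06), Meg3 (0.23 ± 0.066, adjusted p = 0.0382) and Xist (0.44 ± 0.066, adjusted p = 3.99e-04), which were chosen after their values were seen. These counts carry no test. The NAMPT flox Cre effects with IL-1β were -1.49 for Neat1 and -0.48 for Meg3, against -0.82 and -0.25 in LDHA flox cells.

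The NFKBIZ flox line, infected and treated the same way and in 8 libraries of the series, gives another Cre effect without deletion of either enzyme gene. Without IL-1β, the mean Cre effects of Hspa1b on log2(CPM + 0.5) were -2.98 in LDHA flox, -3.90 in NAMPT flox and -2.73 in NFKBIZ flox cells. In the same order, the effects were 2.80, 4.11 and -0.39 for Krt7, -0.53, -1.33 and -0.0067 for Mmp13, and 1.71, -0.30 and 0.10 for Ifi44. These are values of 2 libraries a group, with no test, for genes picked by no rule. All 8 NFKBIZ flox libraries are of set 2, whereas the other 2 lines have both sets, so line and set cannot be told apart here.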
